A study of Homo sapiens with 18 samples.

Results

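C/D box small nucleolar RNAs were taken as all rows of the deposited table whose name starts with SNORD, 256 of 23713 rows. The cells were MOLM-13, an established line from a human acute myeloid leukaemia, given DMSO (the solvent control), IACS-9571 (a ligand of the TRIM24 and BRPF1 bromodomains) or dTRIM24 (a degrader of TRIM24 built from such a ligand and a recruiter of the VHL ubiquitin ligase). Each was applied for 4 h or 24 h, which gives 6 groups of 3 samples. The labels used here state no dose, and they do not tell whether replicates were cultured separately. The table holds 1 authors' mean FPKM per row and group. FPKM is in general a fragment count divided by RNA length and by sequencing total. Column sums differed, as with 771830 FPKM for IACS-9571 and 978765 FPKM for dTRIM24 at 24 h. Replicate spread and read depth cannot be had from group means, so values and differences are given without error or test.

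Box C/D snoRNAs are short nuclear RNAs named after a pair of sequence boxes near their ends. With fibrillarin (FBL), NOP56, NOP58 and SNU13 they form particles that methylate the ribose of chosen bases in ribosomal and spliceosomal RNA, the guide being a stretch of the snoRNA that pairs with the target. Nearly all human members lie in introns of host genes, many of them genes for ribosomal proteins and translation factors, and are trimmed out of the spliced intron. They carry no poly(A) tail, and a host transcript and its snoRNA can differ in level.

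The rows split without a middle. Of the 256 members, 60 (23.4%) reached 1 FPKM in at least 1 group, and 196 stayed near the floor, a low value that 6066 rows of the table share in each column (between 0.0914 and 0.105 FPKM). Of these 196, 195 had exactly the shared value in each of the 6 groups. SNORD86, a snoRNA of the NOP56 gene, was the exception and its highest group mean was 0.112 FPKM. The members just below and just above 1 FPKM were SNORD86 and, at a highest mean of 8.76 FPKM, SNORD94. No member lay between these values. A member within 1.5 times the shared value of a column was counted as near the floor in that group.

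Reaching 1 FPKM did not mean being present throughout. Of the 60 members, 12 were above the floor in all 6 groups, 11 in 5, 9 in 4, 9 in 3, 6 in 2 and 13 in 1 group. Of the 360 group means of these 60 members, 215 were above the floor, and the lowest of the 215 was 2.27 FPKM. The groups differed in how many members were above the floor. The count was 27 with DMSO, 30 with IACS-9571 and 46 with dTRIM24 at 4 h, and 36, 33 and 43 in the same order at 24 h. The summed FPKM of all members was 6889 with DMSO, 6095 with IACS-9571 and 14678 with dTRIM24 at 4 h. At 24 h it was 9567 with DMSO, 12763 with IACS-9571 and 15320.0 with dTRIM24. The sum was lowest with IACS-9571 at 4 h and highest with dTRIM24 at 24 h. As a share of all FPKM in the column it was lowest in the same group (0.617%), but highest with IACS-9571 at 24 h (1.65%), ahead of dTRIM24 at 24 h (1.57%). SNORD76 alone, a snoRNA of the noncoding host gene GAS5, made up between 15.4% and 53.9% of this sum.

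**Figure D1:**
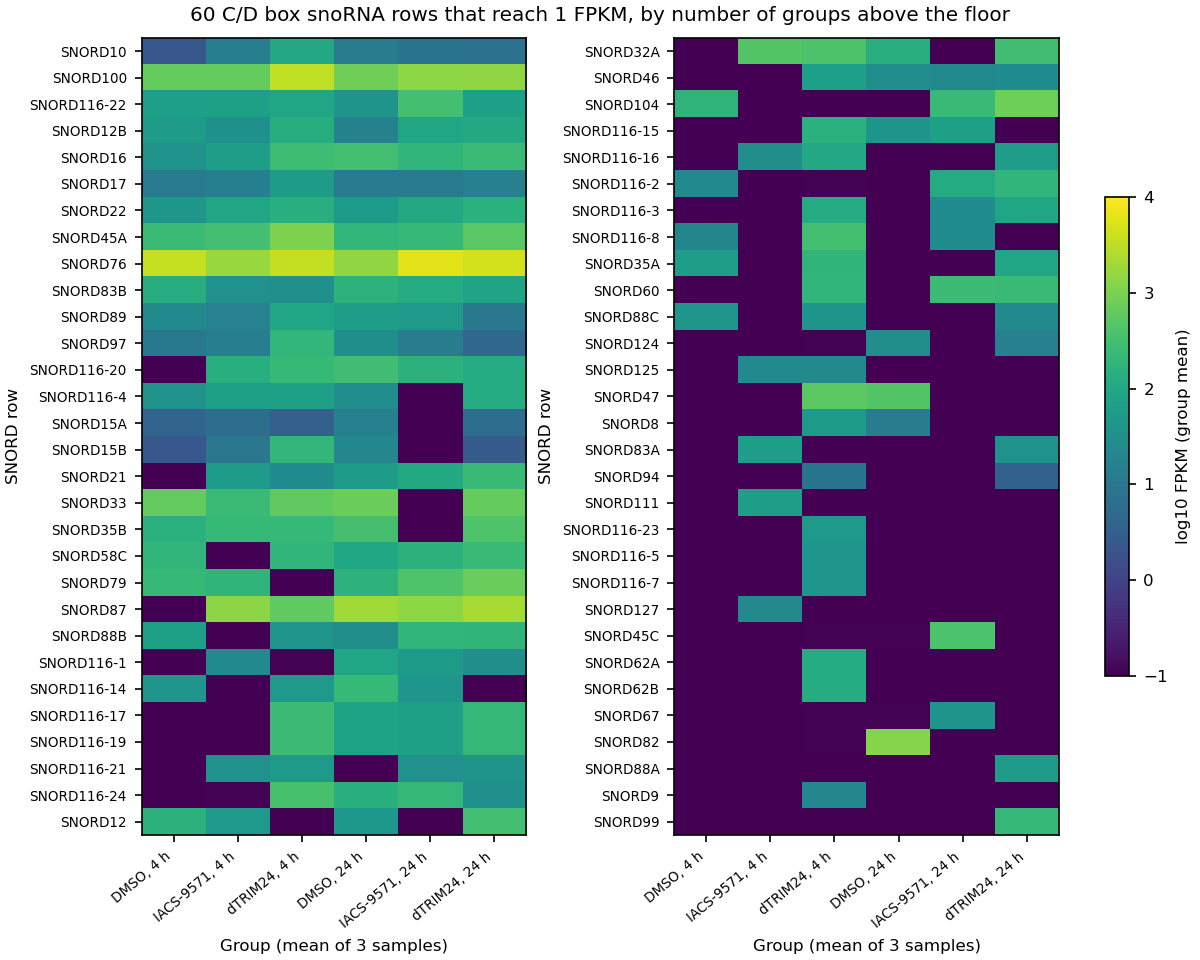
Group means of the 60 C/D box snoRNA rows that reach 1 FPKM, as log10 FPKM (colour), with rows ordered by the number of groups above the floor and columns by treatment and time. The darkest cells are at the floor of about 0.1 FPKM, and the first 12 rows of the left panel are above it in all 6 groups.

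The sequences below, from GENCODE 29 (GRCh38), belong to members that carry the differences described further on, and to copies that the table does not separate. Capitals mark TGATG, the core of box C, within the first 20 bases, and CTGA, box D, within the last 20 bases, on the RNA strand. SNORD22 and SNORD97 are shown because the search found no TGATG in that window of either, and no CTGA at the end of SNORD97.
SNORD10: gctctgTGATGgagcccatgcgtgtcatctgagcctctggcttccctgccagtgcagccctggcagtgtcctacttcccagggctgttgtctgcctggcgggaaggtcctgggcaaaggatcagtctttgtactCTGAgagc
SNORD97: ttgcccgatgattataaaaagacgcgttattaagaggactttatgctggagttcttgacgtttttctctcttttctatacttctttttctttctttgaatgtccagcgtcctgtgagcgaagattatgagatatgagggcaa
SNORD16: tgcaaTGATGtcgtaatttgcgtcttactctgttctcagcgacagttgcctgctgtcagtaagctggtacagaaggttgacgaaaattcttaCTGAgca
SNORD100: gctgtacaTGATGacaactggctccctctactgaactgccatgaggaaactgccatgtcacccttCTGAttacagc
SNORD17: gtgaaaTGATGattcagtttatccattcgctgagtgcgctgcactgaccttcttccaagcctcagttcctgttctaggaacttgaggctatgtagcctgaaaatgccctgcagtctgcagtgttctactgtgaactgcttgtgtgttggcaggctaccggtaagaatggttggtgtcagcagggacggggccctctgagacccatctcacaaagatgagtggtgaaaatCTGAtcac
SNORD45A: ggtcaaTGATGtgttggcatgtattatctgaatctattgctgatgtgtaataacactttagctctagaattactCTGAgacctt
SNORD89: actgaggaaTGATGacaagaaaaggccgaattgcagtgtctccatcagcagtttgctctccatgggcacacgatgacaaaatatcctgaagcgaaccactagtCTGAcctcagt
SNORD22: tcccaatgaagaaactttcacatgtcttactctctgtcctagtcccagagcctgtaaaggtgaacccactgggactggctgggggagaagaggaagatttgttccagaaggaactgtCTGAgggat
SNORD83B: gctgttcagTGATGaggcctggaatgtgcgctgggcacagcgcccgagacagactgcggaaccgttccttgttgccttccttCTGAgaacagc
SNORD116-17: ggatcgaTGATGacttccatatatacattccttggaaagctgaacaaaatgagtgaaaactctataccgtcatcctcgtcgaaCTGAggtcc
SNORD116-19: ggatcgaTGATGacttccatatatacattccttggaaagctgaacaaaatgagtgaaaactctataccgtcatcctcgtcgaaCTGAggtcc
SNORD116-22: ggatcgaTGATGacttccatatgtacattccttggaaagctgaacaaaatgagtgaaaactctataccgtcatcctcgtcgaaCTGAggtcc

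Of the 237 members with a sequence there, 208 (87.8%) hold TGATG in the first 20 bases, 228 (96.2%) hold CTGA in the last 20 bases, and 204 (86.1%) hold both. Among the 95 H/ACA box snoRNA rows (SNORA), the other large class of snoRNAs, 0 hold both. Among 9148 other transcripts of 64 to 237 bases the share with both is 0.645%. The letters thus bear out the name of the rows. Members that reached 1 FPKM hold both boxes in 52 of 57 cases, and members near the floor in 152 of 180. Members with and without a signal thus held the boxes at similar shares (91.2% and 84.4%).

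Length did run with the signal. By RefSeq length, the members reaching 1 FPKM had a median of 94 bases and those near the floor a median of 75 bases. Of 126 members under 80 bases 5 reached 1 FPKM (3.97%), of 65 members of 80 to 89 bases 12 did (18.5%), and of 43 members of 90 to 99 bases 28 did (65.1%). Of 14 members from 100 to under 120 bases 8 reached it (57.1%), and all 7 members of 120 bases or more did. The H/ACA rows, which have a median of 134 bases, reached 1 FPKM in 74 of the 95 cases with a RefSeq length. With the imprinted families SNORD113 to SNORD116 left out, a choice made after the values were seen, the shares were 6.02%, 46.2%, 61.1%, 66.7% and 100% in the same order of length. These shares describe the table, and the part of the length scaling in them was not tested.

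**Figure D2:**
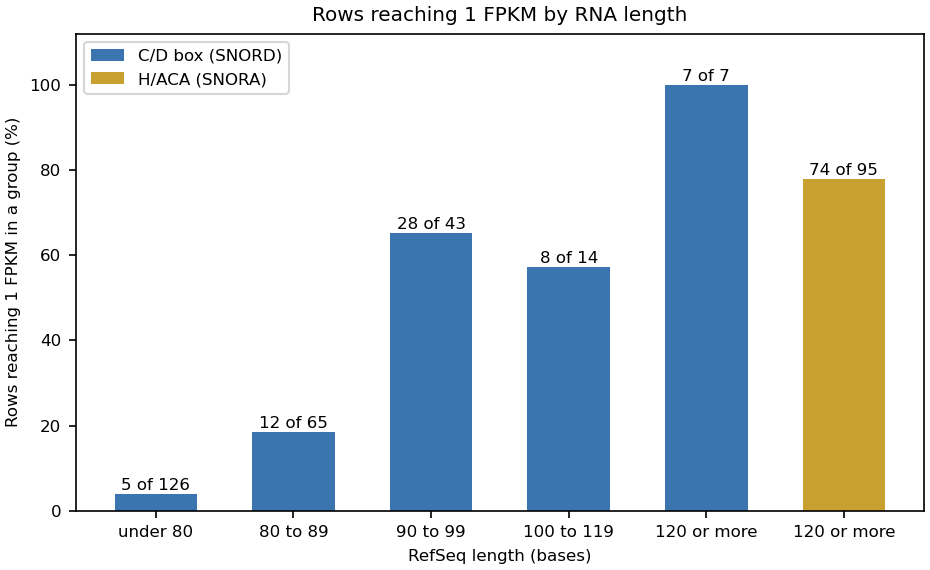
Share of rows that reach 1 FPKM in at least 1 group (y axis, percent) by RefSeq length in bases (x axis), for C/D box rows and, in the last bar, H/ACA rows, with the counts above the bars. The C/D share goes from 5 of 126 under 80 bases to 7 of 7 at 120 bases or more.

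The size of the smallest value above the floor ran with length too. SNORD82 (75 bases, in the nucleolin gene NCL) was above the floor in 1 group, DMSO at 24 h, and there stood at 1233 FPKM. SNORD94 (137 bases, in PTCD3) was above it in 2 groups, at 8.76 FPKM with dTRIM24 at 4 h and 3.63 FPKM with dTRIM24 at 24 h. Over the 60 members the Spearman correlation between length and the lowest group mean above the floor was -0.90. The points share the libraries and the length by which FPKM are scaled, and this is a description only. The 5 members under 80 bases by RefSeq length that reached 1 FPKM had lowest values above the floor between 379 FPKM (SNORD45C) and 1233 FPKM (SNORD82).

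**Figure D3:**
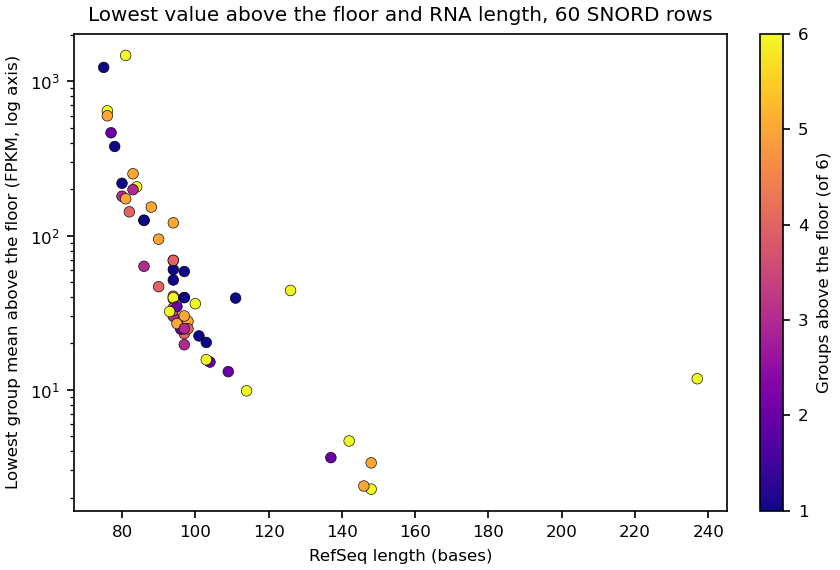
Lowest group mean above the floor (y axis, FPKM, log axis) against RefSeq length in bases (x axis) for the 60 members, coloured by the number of groups above the floor. SNORD82 (75 bases) lies at 1233 FPKM and SNORD10 (148 bases) at 2.27 FPKM, while SNORD22 (126 bases, 44.1 FPKM) and SNORD17 (237 bases, 11.8 FPKM) lie above the downward run of the points.

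Many host genes with both kinds of member showed the same order by length, but not all. In 13 hosts some members reached 1 FPKM and others stayed near the floor. In 9 of the 13, by RefSeq length, every member that reached 1 FPKM was longer than every member that did not. The order failed in NCL, where SNORD82 (75 bases) reached it and SNORD20 (80 bases) did not. In SF3B3 it failed with 94 bases against 101. In SNHG14 members of 94 to 98 bases reached it, while the longest near the floor had 104. In GAS5 the shortest that reached it and the longest near the floor both had 77 bases. The source of the lengths matters for RPL17. There SNORD58C, which reached 1 FPKM, has 90 bases in RefSeq but 64 in GENCODE. SNORD58A (65 bases) and SNORD58B (66 bases) stayed near the floor. SNHG1, a noncoding host, holds SNORD22 (126 bases), which was above the floor in 6 groups, while the other 7 snoRNAs listed for it, SNORD25 to SNORD31, have at most 75 bases and were near the floor throughout. RPL4, a gene for a large subunit protein, holds SNORD16 (100 bases, above the floor in 6 groups), and SNORD18A, SNORD18B and SNORD18C, all near the floor and of at most 70 bases. Of the 10 GAS5 snoRNAs, SNORD76, SNORD79 and SNORD47 reached 1 FPKM.

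The imprinted clusters differed from each other. All 44 SNORD115 rows and all 38 rows of the chromosome 14 cluster (SNORD113 and SNORD114) were near the floor in all groups, as were the other 4 snoRNAs listed for the chromosome 15 cluster. SNORD116, the family within SNHG14 on chromosome 15 whose loss is tied to Prader-Willi syndrome, reached 1 FPKM in 17 of 27 rows. Its members above the floor numbered 5 with DMSO, 6 with IACS-9571 and 15 with dTRIM24 at 4 h, and 9, 12 and 11 at 24 h. The sums over these members were 189, 362 and 2204 FPKM at 4 h and 1009.9, 1206 and 1188 FPKM at 24 h. The family was thus lowest with DMSO at 4 h and highest with dTRIM24 at 4 h, and the 3 groups at 24 h lay between.

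The SNORD116 copies are uncertain as single values. SNORD116-17 and SNORD116-19 have the same sequence and the same 6 values, as do SNORD116-5 and SNORD116-7, and SNORD62A and SNORD62B of the PRRC2B gene. Both rows of each such pair enter the counts and sums of members given here, so these may count the same signal more than once. SNORD116-22 differs from SNORD116-17 at 1 base. In the table SNORD116-17 had 0.0967 FPKM with DMSO, 0.104 FPKM with IACS-9571 and 262 FPKM with dTRIM24 at 4 h, and 78.2, 69.1 and 218 FPKM at 24 h. SNORD116-22 had 67.0, 70.3 and 90.8 FPKM at 4 h and 39.5, 315 and 65.8 FPKM at 24 h. With dTRIM24 at 4 h the 92-base copies above the floor ran from 51.5 FPKM (SNORD116-21 and SNORD116-23) to 355 FPKM (SNORD116-24). In multiples of the lowest of these, SNORD116-14 stood at 1.006, SNORD116-22 at 1.76, SNORD116-16 at 2.01 and SNORD116-15 at 3.03. SNORD116-20 stood at 4.396, SNORD116-17 and SNORD116-19 at 5.09 and SNORD116-24 at 6.895. Some copies thus lay near whole multiples of the lowest value and others did not. The table gives no fragment counts, so how many fragments lie behind such values is unknown. Whether single copies rest on few fragments was not tested.

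The 12 members above the floor in all 6 groups, picked after their values were seen, allow differences between levels rather than between a level and the floor. In 7 of them the highest mean was with dTRIM24 at 4 h. The same share over all rows or over H/ACA rows is not given here, so this count describes the 12 only. The 11 of them other than SNORD76 were found in GENCODE 29, each in an intron of its host.

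SNORD10 lies in EIF4A1 (chromosome 17), the gene of a translation initiation helicase. It had 2.27 FPKM with DMSO, 13.99 FPKM with IACS-9571 and 103 FPKM with dTRIM24 at 4 h, and 12.9, 8.56 and 7.51 FPKM at 24 h. The group given dTRIM24 for 4 h stood 7.39 times above the next highest. SNORD97 lies in EIF4G2 (chromosome 11), the gene of an initiation factor relative. It had 10.5, 13.6 and 201 FPKM at 4 h in the order DMSO, IACS-9571, dTRIM24, and 30.4, 12.4 and 4.66 FPKM at 24 h. Its lowest value was thus in the later group of the same compound that gave the highest one.

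SNORD17, the longest member, lies in SNX5 (chromosome 20), a sorting nexin gene. It had 12.3, 14.5 and 54.6 FPKM at 4 h, and 11.9, 11.8 and 15.3 FPKM at 24 h. Apart from dTRIM24 at 4 h its groups lay between 11.8 and 15.3 FPKM. SNORD89 lies in RNF149 (chromosome 2), a ubiquitin ligase gene, and had 23.2, 16.8 and 89.3 FPKM at 4 h and 64.4, 48.3 and 9.85 FPKM at 24 h.

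SNORD100 lies in RPS12 (chromosome 6), a gene of the small ribosomal subunit. It had 662, 645 and 3249 FPKM at 4 h and 809.9, 1406 and 1480.1 FPKM at 24 h. SNORD45A lies in RABGGTB (chromosome 1), which encodes a subunit of a prenyltransferase, and had 257, 325 and 1033 FPKM at 4 h and 207, 223 and 535 FPKM at 24 h. SNORD12B, in the noncoding host ZFAS1 (chromosome 20), had 58.2, 32.8 and 128 FPKM at 4 h and 15.7, 91.7 and 105 FPKM at 24 h. These 3 were highest with dTRIM24 at 4 h, and SNORD12B by the smallest margin.

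The other members present throughout peaked elsewhere. SNORD16 had 36.2, 61.2 and 277 FPKM at 4 h and 327, 194 and 253 FPKM at 24 h. SNORD22 (U22), known from frog oocytes to be needed for processing of the small subunit RNA, had 44.1, 88.9 and 139 FPKM at 4 h and 52.3, 105 and 155 FPKM at 24 h. At both times its order was DMSO, IACS-9571, dTRIM24 from low to high. SNORD83B, in RPL3 (chromosome 22), ran the other way at 4 h with 132, 33.5 and 32.2 FPKM, and had 170.3, 121 and 84.7 FPKM at 24 h. SNORD76 had 3711, 1673 and 3441 FPKM at 4 h and 1474, 6070.2 and 4607 FPKM at 24 h.

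**Figure D4:**
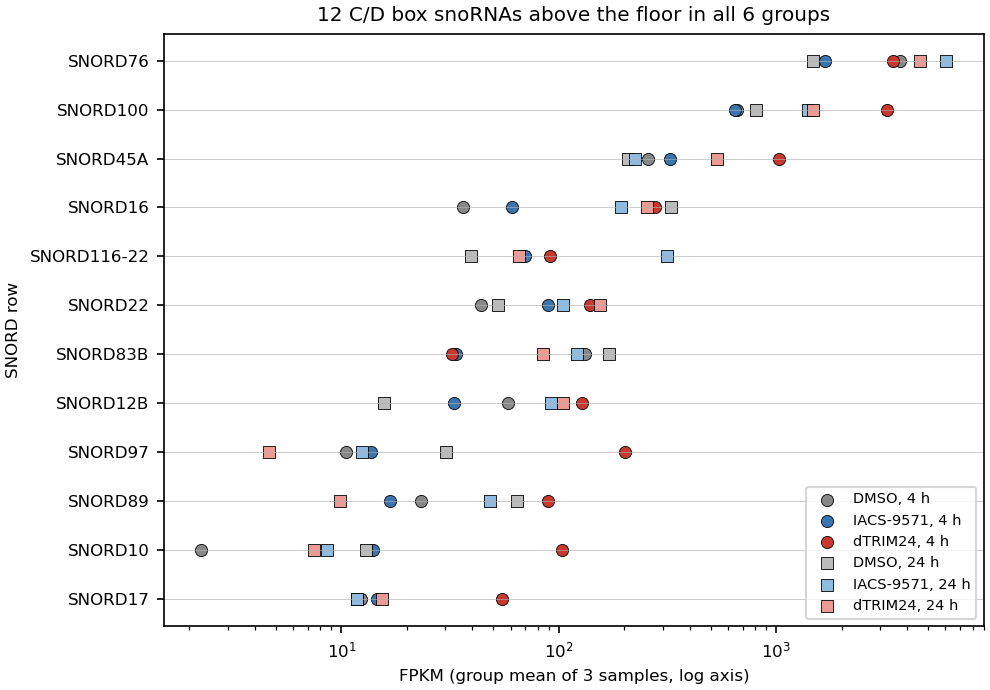
FPKM (x axis, log axis) of the 12 members above the floor in all 6 groups (y axis); each point is 1 group mean of 3 samples, with circles for 4 h and squares for 24 h. dTRIM24 at 4 h is the highest point in 7 of 12 rows, a count without a share over all rows beside it. The point of dTRIM24 at 4 h stands apart most for SNORD10 (103 FPKM) and SNORD97 (201 FPKM).

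At 4 h the comparison of dTRIM24 with DMSO asks what the degrader does early. On the scale of log2(FPKM + 1), with past 2-fold set at a difference of 1 or more either way, 9 of the 12 members present throughout were higher and 1 was lower. Of all 11085 rows above the floor in 6 groups, 0.839% were past 2-fold higher and 0.0722% lower. The differences were 4.997 for SNORD10, 4.13 for SNORD97, 2.90 for SNORD16, 2.29 for SNORD100 and 2.06 for SNORD17. They were 2.001 for SNORD45A, 1.90 for SNORD89, 1.63 for SNORD22 and 1.12 for SNORD12B. SNORD83B was lower, at -2.004, while SNORD116-22 (0.43) and SNORD76 (-0.11) did not pass 2-fold. The median was 1.95 for these 12 and -0.01 for all rows above the floor in 6 groups. Among 25 spike-ins, RNAs of fixed amount added to each sample, the widest difference in this comparison was 0.60. Over the other 8 comparisons it was at most 0.88, in that of dTRIM24 with IACS-9571 at 4 h. The spike-ins were taken with a minimum of 5 FPKM. They are another kind of RNA and do not measure the spread of short RNAs without a tail.

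Host genes differed far less than their snoRNAs. The 11 hosts of these members that the table holds differed by between -0.24 and 0.16, with a median of -0.04. EIF4A1 had 974 FPKM with dTRIM24 against 1103 FPKM with DMSO, a difference of -0.18 where its SNORD10 differed by 4.997. EIF4G2 had 425 FPKM against 420.2 FPKM, a difference of 0.02 where SNORD97 differed by 4.13. RPL3, host of the lower SNORD83B, differed by -0.24. In the other 5 comparisons of compounds at equal time the hosts lay between -0.14 and 0.44.

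**Figure D5:**
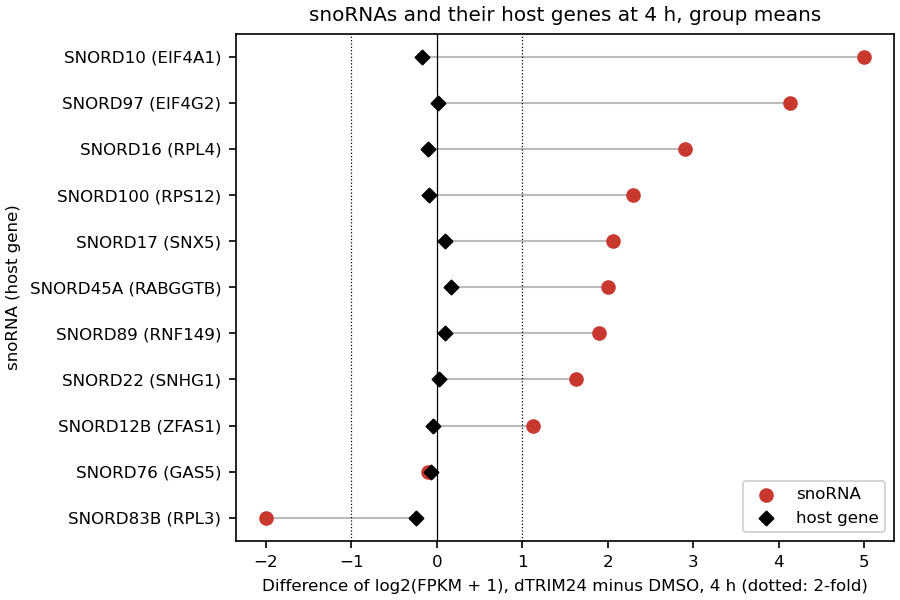
Difference of log2(FPKM + 1) between dTRIM24 and DMSO at 4 h (x axis) for 11 snoRNAs present in all groups (circles) and for their host genes (diamonds), 1 row each; dotted lines mark 2-fold. The hosts lie between -0.24 and 0.16, while 9 of the 11 snoRNAs lie beyond 1 and SNORD83B at -2.004.

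Over all 60 members that reached 1 FPKM, 35 were past 2-fold higher with dTRIM24 than with DMSO at 4 h and 5 lower, beside 1.62% higher and 0.319% lower of all 11283 rows that reached 1 FPKM. The pairs with the same sequence and values were all higher here, and both rows of each pair are counted. These are SNORD116-17 with SNORD116-19, SNORD116-5 with SNORD116-7, and SNORD62A with SNORD62B. A member that reached 1 FPKM through 1 of the groups compared had to differ, so these counts are a description. Of the 60, 23 were above the floor in both groups, 23 with dTRIM24 alone, 4 with DMSO alone and 10 in neither. Of the 23 above the floor in both, 12 were higher and 1 lower, beside 0.997% and 0.0988% of all rows so chosen. SNORD15B, a long member of the RPS3 gene, had 2.38 FPKM with DMSO, 9.50 FPKM with IACS-9571 and 205 FPKM with dTRIM24, while SNORD15A of the same gene had 4.36, 6.41 and 3.36 FPKM. RNAs of other classes that lack a tail also stood higher with dTRIM24 at 4 h. RMRP had 12.7 FPKM with DMSO and 1196 FPKM with dTRIM24, and RPPH1 2.01 FPKM and 493 FPKM. Of the 11283 rows used as background, 11047 are no small RNA. The 83 H/ACA rows that reached 1 FPKM gave 49 past 2-fold higher and 11 lower. Of 35 H/ACA rows above the floor in 6 groups 20 were past 2-fold higher and 3 lower. Their part in the differences of the C/D box members was not tested.

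IACS-9571 at 4 h, compared with the same DMSO mean, gave counts near even. Of the 12 members present throughout, SNORD10 was higher (2.20), SNORD83B (-1.95) and SNORD76 (-1.15) were lower, and SNORD22 lay just under the bound at 0.997, and past it at 1.01 with a pseudocount of 0.1. The shares over all rows above the floor in 6 groups were 0.235% higher and 0.0812% lower. Over the 60, 13 were higher and 12 lower, beside 0.709% and 0.39% of all rows that reached 1 FPKM. Among the 83 H/ACA rows that reached it, 20 were higher and 15 lower. SNORD87, of the noncoding host SNHG6, had 0.0984 FPKM with DMSO and 1368 FPKM with IACS-9571, and SNORD32A had 0.0946 FPKM and 462 FPKM. In the other direction SNORD58C of the RPL17 gene had 199.8 FPKM with DMSO and 0.103 FPKM with IACS-9571, and SNORD104 had 180.1 FPKM and 0.101 FPKM.

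Set against IACS-9571 at 4 h, dTRIM24 was past 2-fold higher in 9 of the 12 and lower in 0, beside 0.74% and 0.0451% of all rows above the floor in 6 groups. The labels give no dose for either compound, and dTRIM24 carries a VHL ligand that IACS-9571 lacks. The differences were 3.78 for SNORD97, 2.80 for SNORD10, 2.35 for SNORD89, 2.33 for SNORD100 and 2.16 for SNORD16. SNORD12B (1.93), SNORD17 (1.84), SNORD45A (1.66) and SNORD76 (1.04) followed, and SNORD22 stood at 0.63. The difference of SNORD76 was little above the widest of a spike-in in this comparison (0.88), which is no bound for the spread of snoRNAs. Over the 60, 34 were higher and 8 lower, beside 1.47% and 0.337% of all rows that reached 1 FPKM. Among the 83 H/ACA rows that reached it, 44 were higher and 6 lower. SNORD79, a GAS5 member, was one of the lower ones with 189 FPKM with IACS-9571 and 0.104 FPKM with dTRIM24.

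At 24 h the members were mixed. With dTRIM24 against DMSO, 4 of the 12 were past 2-fold higher and 2 lower, beside 0.262% and 0.0812% of all rows above the floor in 6 groups. SNORD12B (2.67), SNORD76 (1.64), SNORD22 (1.55) and SNORD45A (1.37) were higher, SNORD89 (-2.59) and SNORD97 (-2.47) were lower, and SNORD83B stood at -0.9991, just inside the bound. Centring on the median of rows that are no small RNA took SNORD83B (-1.29) and SNORD10 (-1.001) past it as well, so that 4 were lower. All rows above the floor in 6 groups had a median of 0.26 in this comparison, and the 25 spike-ins had a median of -0.06. Differences are to be read with both medians in view, and the source of the shift was not tested. Over the 60 members 25 were higher and 12 lower, beside 0.753% and 0.479% of all rows that reached 1 FPKM. Among the 83 H/ACA rows that reached it, 24 were higher and 15 lower. SNORD99, in the host SNHG12, was above the floor with dTRIM24 at 24 h alone, at 219 FPKM. SNORD79 went from 173 FPKM with DMSO to 725 FPKM with dTRIM24, and SNORD104 from 0.101 FPKM to 802 FPKM.

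With IACS-9571 against DMSO at 24 h, 3 of the 12 were higher and 1 lower, beside 0.135% and 0.171% of all rows above the floor in 6 groups. SNORD116-22 (2.97), SNORD12B (2.48) and SNORD76 (2.04) were higher and SNORD97 (-1.23) was lower. SNORD22 stood at 0.991, just inside the bound. It passed 2-fold at 1.004 with a pseudocount of 0.1, 1.002 with the same centring and 1.001 with rescaling to the spike-ins. Over the 60, 13 were higher and 13 lower, beside 0.399% and 0.736% of all rows that reached 1 FPKM. Among the 83 H/ACA rows that reached it, 14 were higher and 26 lower. The snoRNAs of ribosomal protein genes were fewest above the floor in this group. Of the 13 such members that reached 1 FPKM, 6 were above the floor with IACS-9571 at 24 h, and between 9 and 13 were in the other groups. The RPL13A members are known from work on lipid stress. Among them SNORD33 had 632, 252 and 601 FPKM at 4 h in the order DMSO, IACS-9571, dTRIM24, and 748, 0.0915 and 656 FPKM at 24 h. SNORD32A had 0.0946, 462 and 409 FPKM at 4 h and 143, 0.0941 and 296 FPKM at 24 h. SNORD35A had 63.2, 0.0998 and 185 FPKM at 4 h and 0.101, 0.0965 and 92.7 FPKM at 24 h. Their host RPL13A had 1214 FPKM with IACS-9571 at 24 h against 1229 FPKM with DMSO.

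The direct comparison of dTRIM24 with IACS-9571 at 24 h gave 1 of the 12 higher, SNORD45A (1.26), and 3 lower, SNORD116-22 (-2.24), SNORD89 (-2.18) and SNORD97 (-1.24). With the same centring SNORD45A fell under 2-fold (0.96), which left 0 higher. The shares over all rows above the floor in 6 groups were 0.253% and 0.0541%. The median of these rows was 0.28, beside -0.03 for the spike-ins. Over the 60, 21 were higher and 9 lower, beside 0.877% and 0.266% of all rows that reached 1 FPKM. Among the 83 H/ACA rows that reached it, 33 were higher and 8 lower.

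Between 4 h and 24 h the group means of the members present throughout gave different counts past 2-fold for each treatment. With DMSO 4 of the 12 were past 2-fold higher at 24 h and 2 lower, beside 0.217% and 0.135% of all rows above the floor in 6 groups. The higher ones were SNORD16 (3.14), SNORD10 (2.09), SNORD97 (1.45) and SNORD89 (1.44), and the lower ones SNORD12B (-1.83) and SNORD76 (-1.33). With IACS-9571 7 were higher and 0 lower, beside 0.18% and 0.406%, led by SNORD116-22 (2.15), SNORD76 (1.86) and SNORD83B (1.83). With dTRIM24 1 was higher and 5 lower, beside 0.0631% and 0.659%. SNORD97 (-5.16), SNORD10 (-3.62), SNORD89 (-3.06), SNORD17 (-1.77) and SNORD100 (-1.13) were the lower ones, and SNORD83B (1.37) the higher one. Over the 60 members the counts at 24 h against 4 h were 22 higher and 10 lower with DMSO, 24 and 12 with IACS-9571, and 13 and 21 with dTRIM24. All rows that reached 1 FPKM gave 0.78% and 0.372%, 0.487% and 0.904%, and 0.461% and 1.35%. The 83 H/ACA rows among them gave 24 and 14, 15 and 22, and 11 and 37. Each of these comparisons reuses group means of the others, and whether the time courses differ between treatments was not tested.

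Members seen in few groups are listed for completeness of the account. Above the floor with dTRIM24 at 4 h alone were 6 members: SNORD62A and SNORD62B (126 FPKM each), SNORD116-23 (51.5 FPKM), SNORD116-5 and SNORD116-7 (39.6 FPKM each) and SNORD9 of the CHD8 gene (20.3 FPKM). Among them SNORD62A with SNORD62B, and SNORD116-5 with SNORD116-7, are copies of the same sequence and values. SNORD111 (60.2 FPKM) and SNORD127 (22.4 FPKM) were above it with IACS-9571 at 4 h alone. SNORD45C (379 FPKM) and SNORD67 (39.3 FPKM) were above it with IACS-9571 at 24 h alone, and SNORD88A (58.5 FPKM), beside SNORD99, with dTRIM24 at 24 h alone. None of the 13 members seen in 1 group was seen with DMSO at 4 h, the group with the fewest members above the floor. SNORD47 (554 FPKM with dTRIM24 at 4 h and 465 FPKM with DMSO at 24 h), SNORD8 (52.3 and 13.1 FPKM in the same groups) and SNORD125 (25.1 FPKM with IACS-9571 and 24.8 FPKM with dTRIM24 at 4 h) were seen in 2 groups. SNORD83A (64.04 FPKM with IACS-9571 at 4 h) and SNORD124 (29.8 FPKM with DMSO at 24 h) were too, each with dTRIM24 at 24 h as the other group, at 34.6 and 15.1 FPKM.

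SNORD60 was seen in 3 groups, at 199 FPKM with dTRIM24 at 4 h and at 262 FPKM with IACS-9571 and 248 FPKM with dTRIM24 at 24 h. SNORD88B, of the C19orf48 gene, was near the floor with IACS-9571 at 4 h alone and otherwise lay between 30.1 and 197 FPKM. SNORD88C of that gene had 39.6 FPKM with DMSO, 39.5 FPKM with dTRIM24 at 4 h and 24.9 FPKM with dTRIM24 at 24 h. SNORD12 of ZFAS1 was near the floor with dTRIM24 at 4 h, where SNORD12B of the same host was at its highest, and had 326 FPKM with dTRIM24 at 24 h. SNORD21 of RPL5 was near the floor with DMSO at 4 h and highest with dTRIM24 at 24 h, at 229.8 FPKM. SNORD46 had 65.0 FPKM with dTRIM24 at 4 h and between 24.9 and 27.9 FPKM in the 3 groups at 24 h.

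For the proteins of the particle the differences were smaller. Of the 23 genes listed for the core, its assembly, snoRNA maturation and U3 binding, 0 passed 2-fold in any of the 9 comparisons, a count with no test. Among the 11047 rows that are no small RNA, at most 0.616% were past 2-fold higher and at most 0.561% lower in any comparison. A count of 0 among 23 is near those shares and sets these genes apart from no other long rows. FBL, the methyltransferase, had 481, 460.3 and 423 FPKM at 4 h and 369.4, 369.9 and 463 FPKM at 24 h in the order DMSO, IACS-9571, dTRIM24. NOP58, a core scaffold, had 124, 129 and 149.995 FPKM at 4 h and 122, 127 and 143 FPKM at 24 h. NOP56, its partner, had 146, 147 and 145 FPKM at 4 h and 122, 135 and 185 FPKM at 24 h. NHP2L1, the older symbol of SNU13, which binds the boxes first, had 150.2, 139 and 137 FPKM at 4 h and 123, 118 and 148 FPKM at 24 h. With dTRIM24 against DMSO at 4 h the 23 genes differed by between -0.29 (IMP4) and 0.33 (MPHOSPH10), both of them U3 particle proteins. Their median was 0.03, beside -0.01 for 11047 rows that are no small RNA. At 24 h the median was 0.30, beside 0.26 for those rows.

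The snoRNAs U3, U8, U13 and U14 take part in cutting the ribosomal precursor. They were not analysed here. As a check of the label, all 9 myeloid markers were above 1 FPKM in each group (3.55 to 1057 FPKM). The 12 markers of T, B, fibroblast and erythroid cells were below 1 FPKM, and of 3 epithelial markers EPCAM was, while KRT8 and KRT18 reached up to 29.7 FPKM.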

How the data were processed

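RNA-seq of 18 samples was used as 1 table of FPKM, deposited by the authors as 1 mean per group (groups from the sample titles). Per the submitters' processing notes it was made with TopHat2 and Cuffnorm on hg19. For annotation and strand use: not given in the sources used here. Depth is unknown. The labels' treatment protocol gives 24 h throughout, and titles and time points (4 h or 24 h) were followed. SNORD rows were kept where the highest group mean was at least 1 FPKM. Differences were taken between values of log2(FPKM + 1), a scale that shrinks changes of low rows. Spike-ins were left out of the background. Hosts and sequences came from GENCODE 29 by symbol (237 of 256 members), lengths from RefSeq (255 of 256), both on GRCh38, so no coordinates are printed. The 2 lengths differ by some bases for many members. The gap is wider for some, such as SNORD58C (90 in RefSeq, 64 in GENCODE) and SNORD91B (86 and 222). GAS5 hosts came from a fixed list. Members were named by size of difference, up to 10 each way per comparison, if one of the groups had 5 FPKM or more, with the highest 10 by mean. Others, such as those seen in 1 group, were named after their values were seen. Members and lists were chosen with earlier results of these data known. The steps were tested on simulated data. Scripts ran in Python 3.11.15 with pandas 2.3.3, numpy 2.4.6, matplotlib 3.10.9 and scipy 1.17.1. Results on some host genes are not reported here.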

Additional observations from a re-analysis of the deposited data

How the results depend on the processing

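The alternatives were a pseudocount of 0.1, no filter on low values, centring on the median of rows that are no small RNA, rescaling to the spike-ins and subtracting the shared floor. Under these 5, each of the 18 counts over the 60 members past 2-fold stayed within 1.5 times its value. The count of members that reached 1 FPKM was 60 with the floor subtracted, and 196 were near the floor within 1.1 times the shared value. For the 12 members present in all groups, a set chosen after seeing the data, 3 counts moved by more than that. Members higher with IACS-9571 than with DMSO at 4 h went from 1 to 2 with the pseudocount of 0.1. With centring, the higher members in the 24 h comparison of dTRIM24 to IACS-9571 went from 1 to 0, and members lower with dTRIM24 than with DMSO at 24 h from 2 to 4. Of 302 differences past 2-fold among the 60 members, none changed sign under the 5 alternatives. None of these alternatives could reverse a difference of that size, so this outcome was fixed in advance. With centring 5 differences fell below 2-fold. These were SNORD32A with dTRIM24 against DMSO at 24 h (0.75), SNORD21 (0.79) and SNORD45A (0.96) with dTRIM24 against IACS-9571 at 24 h, and SNORD58C (-0.80) and SNORD88B (-0.91) with DMSO at 24 h against 4 h. No paired analysis was possible because the table holds 1 mean per group, and for the same reason no replicate could be left out. No member under 80 bases by RefSeq length had a value between the floor and 379 FPKM, and the cause was not tested. By GENCODE length this does not hold, as SNORD58C (64 bases) had 94.8 FPKM with DMSO at 24 h.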
